A study of Mus musculus with 4 samples.

Results

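Cortical thick ascending limb nuclei, the nuclei of the salt-reabsorbing tubule segment that runs through the kidney cortex to the macula densa, were described in 4 single-nucleus RNA libraries of mouse kidney. The nuclei were chosen by their own transcript counts, given here as unique molecular identifiers (UMIs), each standing for 1 captured RNA molecule. A nucleus counted as cortical if it held at most 15000 UMIs with at most 10% of them mitochondrial, at least 2 UMIs of Slc12a1, at most 1 of Slc12a3 and at most 4 of the proximal tubule genes Slc5a12, Slc13a3, Slc7a13 and Slc22a6 together. In addition, its UMIs of Enox1, Casr and Cldn16 together had to number at least 2 and exceed those of Sgcz, Kcnt1, Tmem207 and Pcsk6, which mark medullary-type limb. This rule picked 1497 of 39654 nuclei, or 314 and 397 nuclei in the losartan libraries and 414 and 372 nuclei in the untreated libraries. Within the limits on UMIs and mitochondrial UMIs alone stood 37959 nuclei, called kept nuclei below.

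The thick ascending limb takes up sodium, potassium and chloride from the tubule fluid through the cotransporter NKCC2, encoded by Slc12a1, and is nearly impermeable to water. Its cortical part also carries calcium and magnesium between the cells through pores of claudin-16 and claudin-19, under the control of the calcium-sensing receptor, and it makes uromodulin and the precursor of epidermal growth factor. At its end lies the macula densa, a plaque of specialised cells that senses salt and steers renin release.

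The losartan group held 2 libraries of kidneys from mice given losartan, which blocks the type 1 receptor for angiotensin II, and the untreated group held 2 libraries of kidneys that got no treatment. All mice were C57BL/6 at postnatal week 22, and no transgene or other agent is named in the labels. How much losartan was given, by which route and for how long, whether the mice were male or female, and at what hour kidneys were taken is not stated in the labels. Nothing says that the 2 libraries of a group came from separate animals, so the p-values measure only the spread between these samples, which may be technical.

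The whole libraries held 58820323 and 59078762 UMIs in the losartan libraries and 42290414 and 54971880 UMIs in the untreated libraries, and the cortical nuclei contributed 1310281 and 1620268 UMIs in the losartan libraries and 1672040 and 1902471 UMIs in the untreated libraries. The median cortical nucleus had 3694 and 3544 UMIs in the losartan libraries and 3446 and 4532 UMIs in the untreated libraries. Pairs of libraries shared 21 to 29 barcodes of all nuclei and 0 of the cortical nuclei. Values below are UMIs summed over the cortical nuclei of a library and scaled to a total of 1000000 UMIs (counts per 1000000, CPM), so they compare 1 gene between samples and not 1 gene with another. This scaling uses the UMIs of all genes, while fold changes come from the edgeR fit with its own scaling factors.

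The label was checked against thick ascending limb markers that the rule did not use. Umod, which encodes uromodulin, averaged 1926 ± 171 CPM in the cortical nuclei and 461 CPM over all kept nuclei (SD, n = 4 libraries for the first value). Egf, the gene of the epidermal growth factor precursor, averaged 8269 ± 2768 CPM in the cortical nuclei, against 1059 CPM over all kept nuclei. Both were thus higher in the cortical nuclei than in the kidney at large. Kcnj1 and Ptger3 were higher as well, at 308 and 383 CPM against 101 and 99.9 CPM over all kept nuclei. Cldn10 went the other way, at 115 CPM in the cortical nuclei against 264 CPM over all kept nuclei. Transcripts of other cells were present too. Markers of at least 1 of 12 other cell classes summed to 3 or more UMIs in 93 and 97 nuclei in the losartan libraries and 104 and 122 nuclei in the untreated libraries.

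Among those other classes, endothelial markers reached that count in 48 and 44 nuclei in the losartan libraries and 24 and 31 nuclei in the untreated libraries, and macrophage markers in 5 and 8 nuclei in the losartan libraries and 21 and 15 nuclei in the untreated libraries. Principal cell markers were found in 10 and 17 nuclei in the losartan libraries and 17 and 47 nuclei in the untreated libraries, and intercalated cell markers in 17 and 11 nuclei in the losartan libraries and 14 and 18 nuclei in the untreated libraries. The anion exchanger gene Slc26a4, a mark of type B intercalated cells, averaged 763 CPM in the nuclei with markers of any other class and 11.2 CPM in the rest. Slc26a4 is itself among the intercalated cell markers that sorted the nuclei, so this contrast follows from the sorting. For part of the treatment results, values without the nuclei that carried other classes' markers are also given. That step was added after the data were seen, and it leaves Slc8a1, Calb1 and Klk1 out of the marker lists.

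Nuclei at the limit of the rule held less Slc12a1 than the average cortical nucleus. Members with exactly 2 UMIs of Enox1, Casr and Cldn16 held 8595 and 7514 CPM in the losartan libraries and 6264 and 4398 CPM in the untreated libraries of Slc12a1. Nuclei with 1 such UMI and 0 of the medullary-type genes, which the rule left out, held 4902 and 2841 CPM in the losartan libraries and 1731 and 1865 CPM in the untreated libraries. Umod averaged 1015 CPM just inside the limit and 526 CPM just outside it.

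The cortical nuclei were next set beside 2931 medullary-type thick ascending limb nuclei, chosen by the same rule with its last condition turned round, and 2713 nuclei of the distal convoluted tubule (DCT), the next segment, with at least 2 UMIs of Slc12a3. The rule splits cortical from medullary-type nuclei, so these levels are a description and no test is given. Among 4328 genes outside the rule with at least 50 CPM in either group, 105 or 2.43% were at least 1 log2 unit higher in cortical nuclei and higher in 4 of 4 libraries. A further 74 or 1.71% were at least as far below, in 4 of 4 libraries.

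The genes that made up the rule set the scale. Enox1, which encodes an oxidase of the cell surface, averaged 1719 ± 335 CPM in cortical nuclei, 66.7 ± 12.1 CPM in medullary-type nuclei and 10.5 ± 3.87 CPM in DCT nuclei (SD, n = 4 libraries of both treatments, here and below). Casr, the calcium-sensing receptor, averaged 714 ± 143 CPM in cortical nuclei, 205 ± 56.0 CPM in medullary-type nuclei and 47.0 ± 7.30 CPM in DCT nuclei. Cldn16, the claudin of the magnesium and calcium pore, averaged 106 ± 4.92 CPM in cortical nuclei, 29.8 ± 5.17 CPM in medullary-type nuclei and 1.84 ± 0.911 CPM in DCT nuclei. Slc12a1 itself was lower in cortical than in medullary-type nuclei in 4 of 4 libraries, at 12312 ± 785 and 15859 ± 1330.1 CPM.

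Among the potassium channel and pore genes given here, Kcnj16 was higher and Cldn10 lower in cortical than in medullary-type nuclei in 4 of 4 libraries. Kcnj16, a subunit of the basolateral potassium channel, averaged 1084 ± 69.6 CPM in cortical nuclei, 573 ± 47.2 CPM in medullary-type nuclei and 765 ± 51.0 CPM in DCT nuclei. Kcnj10, its partner subunit, averaged 60.4 ± 11.6 CPM in cortical and 48.0 ± 8.80 CPM in medullary-type nuclei, while Kcnj1, the apical channel ROMK, averaged 308 ± 28.6 and 347 ± 13.5 CPM, the first higher in 4 of 4 libraries and the second in 1 of 4. Cldn10, whose pore carries sodium between the cells, averaged 115 ± 21.6 CPM in cortical nuclei, 264 ± 39.8 CPM in medullary-type nuclei and 55.1 ± 13.4 CPM in DCT nuclei, and Cldn19, the partner of claudin-16, averaged 62.4 ± 12.3 CPM in cortical and 55.1 ± 10.4 CPM in medullary-type nuclei. Bsnd, which encodes barttin, averaged 35.1 ± 3.24 CPM in cortical and 47.0 ± 22.9 CPM in medullary-type nuclei, with a spread that overlaps.

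Receptors and kinases followed. Pth1r, the parathyroid hormone receptor, averaged 198 ± 17.7 CPM in cortical nuclei, 61.1 ± 8.94 CPM in medullary-type nuclei and 101 ± 5.37 CPM in DCT nuclei. Ptger3, a prostaglandin E2 receptor, was lower in cortical nuclei at 383 ± 52.4 CPM in cortical nuclei, 677 ± 104 CPM in medullary-type nuclei and 59.6 ± 22.2 CPM in DCT nuclei. Wnk1, a kinase gene of the pathway that activates the salt cotransporters, averaged 1292 ± 197 CPM in cortical nuclei, 399.6 ± 33.1 CPM in medullary-type nuclei and 4276 ± 987 CPM in DCT nuclei, so the cortical level lay between the other 2 segments. The mineralocorticoid receptor gene Nr3c2 averaged 809 ± 82.7 CPM in cortical and 567 ± 111 CPM in medullary-type nuclei, and Ppargc1a, a coactivator that drives mitochondrial genes, averaged 907 ± 45.3 and 1393 ± 108 CPM.

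**Figure D1:**
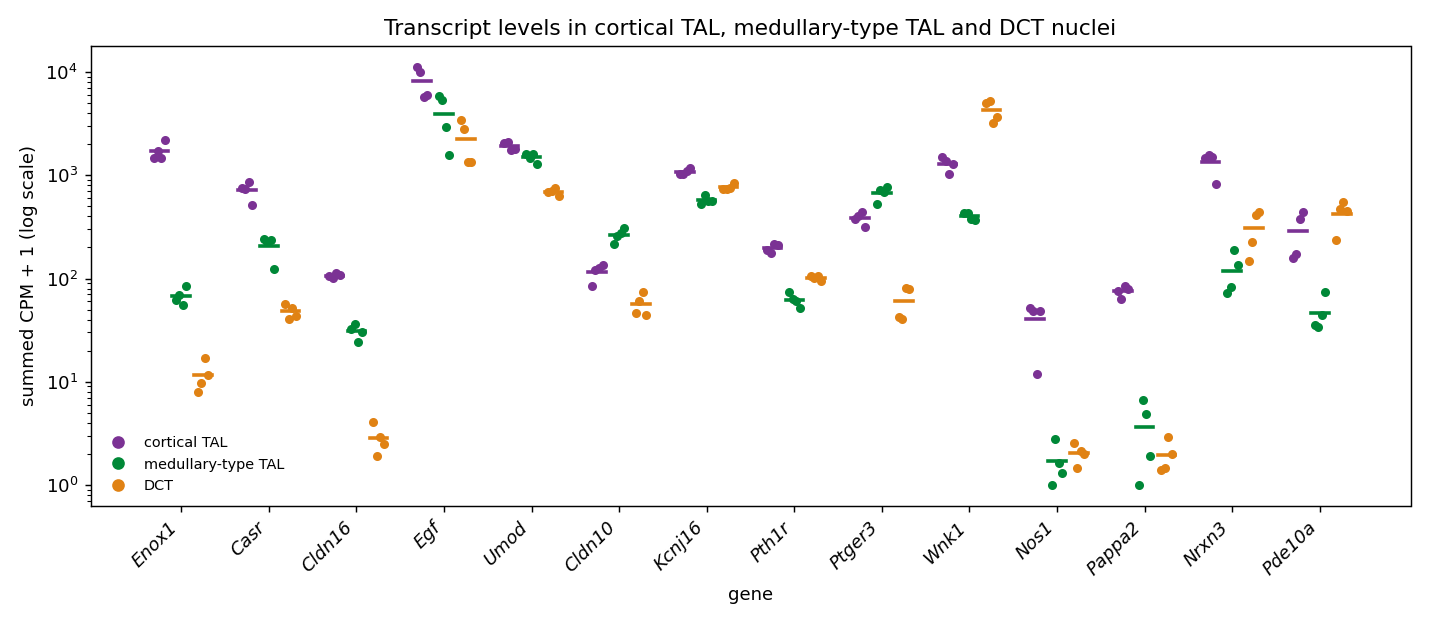
Summed CPM plus 1 on a log axis for 14 genes in cortical thick ascending limb (purple), medullary-type thick ascending limb (green) and distal convoluted tubule (orange) nuclei, with 1 point per library and a bar at the mean of 4 libraries. Pth1r, Wnk1 and Nrxn3 were higher in cortical than in medullary-type nuclei in 4 of 4 libraries, and Cldn10 and Ptger3 were lower in 4 of 4.

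Outside the rule, the 10 genes furthest above the medullary-type level were Gm6994, Pappa2, Slc26a4, Nrxn3, Lsamp, Sfrp1, Tmem163, Tshr, Zcchc16 and Slc4a9. Nrxn3, a cell adhesion gene best known from synapses, averaged 1337 ± 348 CPM in cortical nuclei, 118 ± 53.6 CPM in medullary-type nuclei and 306 ± 142 CPM in DCT nuclei. Sfrp1, a secreted Wnt inhibitor, averaged 211 ± 45.3 CPM in cortical nuclei, 22.5 ± 5.99 CPM in medullary-type nuclei and 190.1 ± 9.87 CPM in DCT nuclei, and Tshr, the thyrotropin receptor, averaged 98.1 ± 23.1 CPM in cortical nuclei, 12.2 ± 6.60 CPM in medullary-type nuclei and 23.6 ± 13.4 CPM in DCT nuclei. Gm6994 lies antisense within Enox1 on chromosome 14, and counting by strand is not documented, so its reads cannot be told from those of Enox1. Slc26a4, Lsamp, Tmem163 and Slc4a9 came largely from nuclei that carried markers of other classes: without those nuclei they averaged 11.2, 15.1, 2.63 and 33.9 CPM, against 268, 232, 56.1 and 145 CPM with them. For Slc26a4 this follows from the sorting, as it is among the markers that sorted those nuclei. Lsamp, Tmem163 and Slc4a9 are not among them.

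Furthest below the medullary-type level were Rgs7, Scel, Ano4, Gpc5, Prox1, Lama1, Dnah11, Elfn1, Filip1l and Ank2. Rgs7, a regulator of G protein signalling, averaged 6.72 ± 3.38 CPM in cortical nuclei, 266 ± 103 CPM in medullary-type nuclei and 13.3 ± 4.88 CPM in DCT nuclei. Prox1, a homeobox transcription factor, averaged 30.7 ± 5.37 CPM in cortical nuclei, 200.3 ± 26.2 CPM in medullary-type nuclei and 70.4 ± 11.4 CPM in DCT nuclei, and Gpc5, a cell surface proteoglycan, averaged 94.99 ± 41.5 CPM in cortical nuclei, 649 ± 127 CPM in medullary-type nuclei and 69.7 ± 20.02 CPM in DCT nuclei.

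The cortical nuclei were not uniform. A small group, 16 and 17 nuclei in the losartan libraries and 8 and 21 nuclei in the untreated libraries, carried transcripts of the macula densa. These nuclei held 2 or more UMIs in sum of Nos1, the neuronal nitric oxide synthase, and Pappa2, a protease of insulin-like growth factor binding proteins. For Egf the macula densa-type nuclei had 1763 and 1508 CPM in the losartan libraries and 1187 and 2511 CPM in the untreated libraries, under the level of the whole group in 4 of 4 libraries. For Robo2, an axon guidance receptor gene, they had 3320.3 and 4309.6 CPM in the losartan libraries and 1955 and 3262 CPM in the untreated libraries. Ptgs2, another macula densa gene, had at most 3.70 CPM in any library, and Oxtr was at 0 in 4 of 4.

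A larger group, 36 and 59 nuclei in the losartan libraries and 38 and 73 nuclei in the untreated libraries, met the rule through Enox1 alone, with no UMI of Casr or Cldn16. It averaged 9046 ± 1211 CPM of Slc12a1, against 12807 ± 924 CPM in the nuclei with Casr or Cldn16, and 1186 ± 131 against 2034 ± 182 CPM of Umod (SD, n = 4). Robo2 ran the other way, at 1245 ± 564 against 266 ± 54.3 CPM. Macula densa genes did so as well, with Nos1 at 107 ± 74.8 against 29.0 ± 13.0 CPM and Pappa2 at 224 ± 120.1 against 55.8 ± 11.3 CPM, and so did Csmd1, a complement regulator gene, at 1500.4 ± 1283 against 199 ± 116 CPM. C7, a complement component gene, averaged 187 ± 110.2 against 53.0 ± 24.5 CPM. The part of macula densa-type and other cells in the Robo2 value was not tested.

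A Cldn16 UMI was found in 87 and 110 cortical nuclei in the losartan libraries and 122 and 117 cortical nuclei in the untreated libraries. Those nuclei were set beside the cortical nuclei without one, again as a description. Nuclei with a Cldn16 UMI were deeper in each library, with medians of 4160 and 3966 UMIs in losartan and 3509 and 5226 UMIs in untreated libraries. Nuclei without one had 3489 and 3414 UMIs in losartan and 3393.5 and 4266 UMIs in untreated libraries. The part of depth in the contrasts below was not tested. Tmem52b, a membrane protein gene of the distal nephron, averaged 456 ± 68.1 CPM with Cldn16 and 202 ± 28.0 CPM without it. Foxq1, a forkhead transcription factor, averaged 62.7 ± 15.5 and 29.6 ± 4.61 CPM, and Kcnj10 90.0 ± 12.5 and 46.7 ± 11.4 CPM. All 3 were higher with Cldn16 in 4 of 4 libraries, as were 9.4% of the 4243 genes compared, and all 3 also once macula densa-type nuclei and those with other classes' markers were left out.

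The treatment comparison asked which cortical transcripts differed between losartan and untreated kidneys. Of 11529 genes tested with edgeR's quasi-likelihood test, 4 passed an adjusted p of 0.05, or 0.0347%. Kap, Acsm2 and Cyp2e1 rose, 3 genes or 0.026%, and Pde10a fell, 1 gene or 0.00867%. At an unadjusted p under 0.05 there were 866 genes, or 7.51%, made up of 3.63% higher and 3.89% lower. Both losartan libraries lay above both untreated libraries in 16.9% of the genes and below both in 20.5%.

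Pde10a encodes a phosphodiesterase that breaks down cAMP and cGMP, and lies on chromosome 17 at 8525372 to 8986648 on the plus strand (GRCm38). It had 156 and 172 CPM in losartan libraries 1 and 2, against 379 and 437 CPM in untreated libraries 1 and 2. Both losartan libraries lay under both untreated libraries, with a log2 fold change -1.30 ± 0.14 (SE) (edgeR, adjusted p = 0.0394). After each nucleus was thinned to 2000 UMIs, Pde10a was detected in 15.6% and 13.6% of cortical nuclei in the losartan libraries and 27.1% and 32.0% in the untreated libraries.

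The macula densa-type nuclei had a higher level of Pde10a than the whole group, with 1530.3 and 1769.7 CPM in the losartan libraries and 2909.9 and 1545 CPM in the untreated libraries. Without them the gene had 74.4 and 109.7 CPM in the losartan libraries and 312 and 379.7 CPM in the untreated libraries, a log2 fold change of -1.88 (edgeR, adjusted p = 0.0324). Without the nuclei that carried other classes' markers the log2 fold change was -1.17 (edgeR, adjusted p = 0.0181). Pde10a did not pass without the highest doublet scores (edgeR, adjusted p = 0.0818), without the 10% of cortical nuclei richest in proximal tubule UMIs (0.0561), at a mitochondrial limit of 5% (0.0543) or at 4 or more UMIs of Enox1, Casr and Cldn16 (0.0770), with log2 fold changes from -1.34 to -1.14. A predicted gene on the opposite strand, Gm17087, overlaps Pde10a.

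The 3 genes that rose are known as transcripts of the proximal tubule. Kap, an androgen-regulated kidney protein gene on chromosome 6, had 2174 and 2075 CPM in losartan libraries 1 and 2, against 630.4 and 491 CPM in untreated libraries 1 and 2. Its log2 fold change 1.94 ± 0.15 (SE) had an adjusted p of 0.00807 (edgeR). Acsm2, a mitochondrial acyl-CoA synthetase gene on chromosome 7, had 213 and 223 CPM in losartan libraries 1 and 2, against 74.8 and 78.8 CPM in untreated libraries 1 and 2. Cyp2e1, a cytochrome P450 gene on the same chromosome, had 98.5 and 87.6 CPM in losartan libraries 1 and 2, against 25.1 and 28.9 CPM in untreated libraries 1 and 2. Their log2 fold changes were 1.52 and 1.79 (edgeR, adjusted p = 0.0166 and 0.0394). Cyp2e1 did not pass in the same 4 alternatives in which Pde10a did not (edgeR, adjusted p from 0.0543 to 0.114), and Acsm2 did not pass at 4 or more UMIs of Enox1, Casr and Cldn16 (0.0770). Cyp2e1 also did not pass when the replicate number was added to the edgeR fit as a block, where Kap, Acsm2 and Pde10a did.

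Proximal tubule RNA moved with the treatment in these libraries. Nuclei with 5 or more UMIs of the 4 proximal tubule genes of the rule numbered 5318 and 4436 in the losartan libraries and 2739 and 2022 in the untreated libraries. Their share of kept nuclei was 50.7% on average in the losartan libraries and 25.6% in the untreated libraries. In those nuclei Kap had 2881 and 2799.5 CPM in the losartan libraries and 1494 and 1444 CPM in the untreated libraries. Over the 8 proximal tubule markers outside the rule, the cortical nuclei held 3639 and 3378 CPM in the losartan libraries and 1637 and 1007 CPM in the untreated libraries in sum, with none of them at 0. After thinning, Kap was found in 98.1% and 97.0% of cortical nuclei in the losartan libraries and 70.3% and 67.5% in the untreated libraries, and in 97.9% and 96.6% of proximal tubule-rich nuclei in the losartan libraries and 78.5% and 75.4% in the untreated libraries. The median depths of the proximal tubule-rich nuclei before thinning were 5376 and 5256 UMIs in the losartan libraries and 4902 and 6329.5 UMIs in the untreated libraries. The cortical share thus lay slightly above that of the nuclei to which the gene belongs in the losartan libraries and below it in the untreated libraries. The part of free RNA in the result was not tested.

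Without any 1 library, none of the 4 calls passed. Their adjusted p by edgeR then ran from 0.0639 (Kap, without losartan library 2) to 0.557 (Cyp2e1 and Pde10a, without untreated library 2), while their log2 fold changes kept their signs. The number of genes called was 1 (Gm26870, a gene named here only because it was that call) once losartan library 2 was left out and 0 when any of the other 3 was left out, with 505 to 1121 genes at an unadjusted p under 0.05 in edgeR. DESeq2 on all 4 libraries called 37, or 0.51% of the genes to which it gave an adjusted p. Without the nuclei that carried other classes' markers edgeR called 19, or 0.187%, and without the macula densa-type nuclei 5, or 0.0438%.

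**Figure D2:**
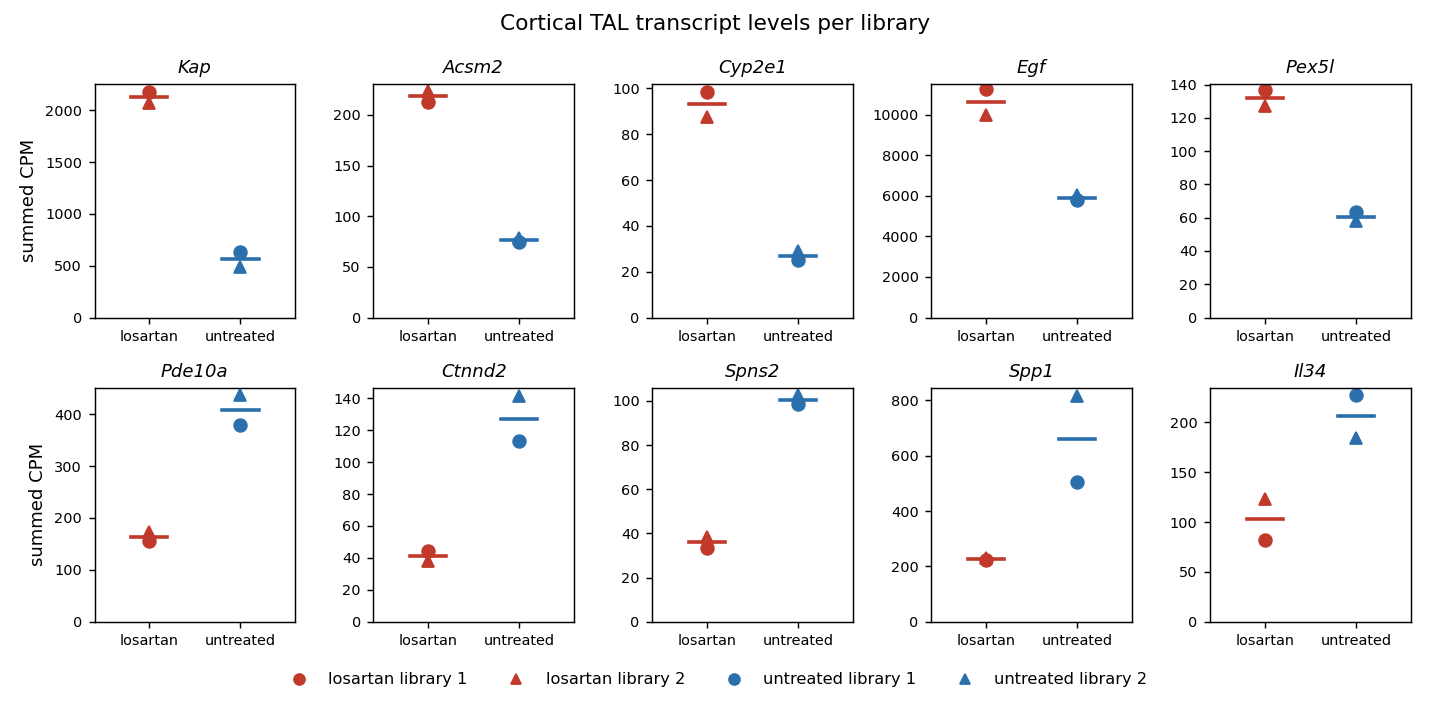
Summed CPM in cortical thick ascending limb nuclei for 10 genes, with losartan libraries (red) left of untreated libraries (blue), 1 symbol per library and a bar at the mean of 2. The groups did not overlap in any of the 10 panels, as the rule that picked all of these genes but Il34 required. Over all genes tested, 37.3% did not overlap, in either direction. Only Kap, Acsm2, Cyp2e1 and Pde10a passed the adjusted test in edgeR on all cortical nuclei.

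Egf and Spp1 came close to the threshold. Egf, on chromosome 3, had 11259 and 9986 CPM in losartan libraries 1 and 2, against 5795 and 6038 CPM in untreated libraries 1 and 2. The losartan libraries were both higher, with a log2 fold change 0.86 ± 0.13 (SE) (edgeR, adjusted p = 0.0911), which did not pass. Without the nuclei that carried other classes' markers the log2 fold change was 0.88 and passed (edgeR, adjusted p = 0.0489). The antisense gene Gm42697, which overlaps Egf and whose reads cannot be told from it without strand, had 249 and 219 CPM in the losartan libraries and 105 and 128 CPM in the untreated libraries.

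Spp1, which encodes the secreted protein osteopontin, had 224 and 230.2 CPM in losartan libraries 1 and 2, against 505 and 815 CPM in untreated libraries 1 and 2. Both losartan libraries were lower, with a log2 fold change -1.53 ± 0.22 (SE) (edgeR, adjusted p = 0.0911), short of the threshold. Without the nuclei with other classes' markers it was -1.36 (edgeR, adjusted p = 0.0375). Thinned Spp1 detection was 31.8% and 37.0% of cortical nuclei in the losartan libraries and 53.9% and 71.0% in the untreated libraries. Among proximal tubule-rich nuclei it was 21.6% and 25.2% of nuclei in the losartan libraries and 43.9% and 55.3% in the untreated libraries, so the cortical shares were higher in each library.

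The next genes by p among those that were lower with losartan included Ctnnd2, which encodes delta-catenin, with 44.3 and 38.3 CPM in the losartan libraries and 113 and 141 CPM in the untreated libraries (edgeR, adjusted p = 0.0534). Spns2, a transporter of sphingosine 1-phosphate, had 33.6 and 38.3 CPM in the losartan libraries and 98.7 and 102 CPM in the untreated libraries (edgeR, adjusted p = 0.0534). The remaining genes are given by their log2 fold change alone. Mgmt, a DNA repair enzyme, Ptprn2, a receptor-type phosphatase, Npas2, a clock transcription factor, and Oasl1, an interferon-stimulated gene, had log2 fold changes of -1.60, -3.46, -2.88 and -3.30. Ltc4s, the leukotriene C4 synthase gene, and Gm26542 overlap on opposite strands, and had -2.18 and -1.04. None of these 8 genes passed the adjusted test on all cortical nuclei in edgeR. Without the nuclei that carried other classes' markers Spns2 and Ltc4s passed (edgeR, adjusted p = 0.0142 and 0.0489). Ctnnd2 passed without macula densa-type nuclei (0.0285), and Ctnnd2 and Spns2 passed among nuclei of at least 2000 UMIs (both 0.0442). DESeq2 called Ctnnd2, Spns2, Gm26542 and Ltc4s.

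On the higher side, Cyp2j13, a P450 gene, had 68.7 and 73.4 CPM in the losartan libraries and 23.9 and 20.5 CPM in the untreated libraries, and Hbb-bs, a beta globin gene of red blood cells, had 64.1 and 66.7 CPM in the losartan libraries and 24.5 and 21.6 CPM in the untreated libraries. Pex5l, which encodes a relative of the peroxisomal import receptor, had 137 and 127 CPM in the losartan libraries and 63.4 and 57.8 CPM in the untreated libraries, Zcchc16 had 412 and 469 CPM in the losartan libraries and 214 and 140.3 CPM in the untreated libraries, and Hs3st5, a heparan sulfate sulfotransferase, had 19.1 and 26.5 CPM in the losartan libraries and 2.39 and 3.68 CPM in the untreated libraries. Their adjusted p by edgeR ran from 0.0534 for Cyp2j13 to 0.0911 for Hs3st5, so none passed on all cortical nuclei. Without the nuclei that carried other classes' markers Cyp2j13, Hbb-bs, Pex5l and Zcchc16 passed, with log2 fold changes of 1.90, 1.76, 1.19 and 1.73 (edgeR, adjusted p from 0.00224 for Zcchc16 to 0.0420 for Hbb-bs), and DESeq2 on all cortical nuclei called the same 4. Hs3st5 had 0 and 0.887 CPM in the losartan libraries and 0.880 and 4.20 CPM in the untreated libraries without those nuclei, so the losartan libraries were no longer both higher. Endothelial markers, at 556 and 387 CPM in the losartan libraries and 252 and 192 CPM in the untreated libraries in sum over 5 markers with none at 0, also lay higher in the losartan libraries, and their part in these values was not tested.

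The transporters that define the segment did not pass the test in either direction. Slc12a1 is itself a gene of the rule, which asked for at least 2 UMIs of it in each nucleus. Its test is therefore not independent of the choice of nuclei. Slc12a1 had 12679.7 and 13242 CPM in losartan libraries 1 and 2, against 11615 and 11709.5 CPM in untreated libraries 1 and 2, a log2 fold change 0.17 ± 0.12 (SE) (edgeR, adjusted p = 0.859). Umod had 2047 and 2099.7 CPM in the losartan libraries and 1774 and 1783 CPM in the untreated libraries (log2 0.24), Kcnj1 -0.03, Kcnj10 -0.29, Kcnj16 -0.13 and Bsnd -0.12 on the log2 scale. Atp1b1, which encodes a beta subunit of the sodium pump, had a log2 fold change of -0.15, and the pathway kinase genes Wnk1, Wnk4 and Stk39 had 0.33, -0.03 and -0.19.

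Over a list of salt transport genes, 33 of 36 were tested and 0 passed in edgeR or DESeq2. At an unadjusted p under 0.05, 4 were higher and 2 lower in the losartan libraries, where all genes gave 3.63% and 3.89%. The list's median log2 fold change was -0.01, against 0.00103 over all genes tested. Kctd1, which encodes a nuclear BTB domain protein, had 505 and 529.5 CPM in the losartan libraries and 766 and 893 CPM in the untreated libraries, and the sodium bicarbonate cotransporter gene Slc4a4 had 259 and 278 CPM in the losartan libraries and 193 and 142 CPM in the untreated libraries. Slc4a4 is also a gene of the proximal tubule.

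Calcium and magnesium genes did not pass the test either. Casr and Cldn16 are genes of the rule, so their values under treatment are not independent of the choice of nuclei. Casr had 746 and 737 CPM in losartan libraries 1 and 2, against 858 and 516 CPM in untreated libraries 1 and 2 (edgeR, adjusted p = 0.953), and untreated library 2 was the lowest. Cldn16 had 105 and 99.98 CPM in the losartan libraries and 112 and 107 CPM in the untreated libraries, Cldn19 60.3 and 51.8 CPM in the losartan libraries and 80.1 and 57.3 CPM in the untreated libraries and Cldn10 84.0 and 120.3 CPM in the losartan libraries and 124 and 133 CPM in the untreated libraries. Of 29 genes tested in that list, 0 passed in edgeR or DESeq2, and the median was -0.05. At an unadjusted p under 0.05, 1 was higher and 1 was lower, where all genes gave 3.63% and 3.89%.

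Losartan's own target, the receptor gene Agtr1a, had 34.3 and 66.7 CPM in the losartan libraries and 47.2 and 15.8 CPM in the untreated libraries in cortical nuclei and averaged 91.7 CPM over all kept nuclei. Its log2 fold change 0.73 ± 0.47 (SE) did not pass (edgeR, adjusted p = 0.825). Among 30 tested genes of hormone receptors and cAMP signalling, Pde10a was the only one that edgeR called, where it called 0.0347% of all genes. At an unadjusted p under 0.05, 4 were higher and 2 lower, where all genes gave 3.63% and 3.89%. The median of the list was 0.02. That median was 0.23 without untreated library 1 and -0.10 without untreated library 2. Pth1r, Ptger3, Nr3c2, Esrrg and Ppargc1a had log2 fold changes of -0.20, 0.07, 0.18, 0.19 and 0.10. Avpr2, the vasopressin receptor, was under the filter on low counts, at 2.39 to 8.02 CPM, as were Cldn14 and Ptgs2.

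No macula densa gene passed the adjusted test. Nos1 had 51.1 and 47.5 CPM in losartan libraries 1 and 2, against 10.8 and 47.3 CPM in untreated libraries 1 and 2, so the groups did not overlap, but losartan library 2 and untreated library 2 were nearly level and untreated library 1 alone was low. Pappa2 had 74.0 and 61.7 CPM in the losartan libraries and 83.7 and 78.8 CPM in the untreated libraries, with both losartan libraries lower. The richest nucleus held 67 of 140 Pappa2 UMIs in untreated library 1 and 36 of 150 in untreated library 2. In losartan libraries 1 and 2 it held 23 of 97 and 32 of 100. Of 9 tested genes of the list, 0 passed in edgeR or DESeq2. At an unadjusted p under 0.05, 1 was higher and 1 lower, where all genes gave 3.63% and 3.89%.

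Injury and repair genes lay lower in the losartan libraries as a list, while edgeR called 0 of them. Of 28 tested genes, 26 had a negative log2 fold change, 16 had both losartan libraries below both untreated libraries, and 0 had both above. All genes tested gave 20.5% and 16.9%, in that order. At an unadjusted p under 0.05, 13 were lower and 0 higher, where all genes gave 3.89% and 3.63%. The median was -0.55. DESeq2 called 4 as lower, where it called 0.51% of all genes with an adjusted p, in either direction.

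Lcn2, which encodes the iron-carrier binding protein lipocalin-2, had 3.05 and 6.79 CPM in losartan libraries 1 and 2, against 29.3 and 97.2 CPM in untreated libraries 1 and 2. Untreated library 2 was the highest by far. In that library 14.0% of thinned cortical nuclei and 12.3% of proximal tubule-rich nuclei held a UMI, so the shares were close there. In untreated library 1 they were 5.99% and 2.12%. Clu, the chaperone clusterin, had 22.9 and 31.5 CPM in the losartan libraries and 56.8 and 119 CPM in the untreated libraries, with thinned detection in untreated library 2 of 18.3% in cortical and 8.85% in proximal tubule-rich nuclei.

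Nupr1, a stress-induced chromatin protein, had 4.58 and 9.87 CPM in the losartan libraries and 28.1 and 37.3 CPM in the untreated libraries. Dcdc2a, a microtubule binding protein, had 14.5 and 35.8 CPM in the losartan libraries and 86.7 and 73.6 CPM in the untreated libraries, and the cell cycle inhibitor gene Cdkn1a had 0.763 and 9.26 CPM in the losartan libraries and 24.5 and 35.2 CPM in the untreated libraries. Birc3, an inhibitor of apoptosis, had 50.4 and 44.4 CPM in the losartan libraries and 84.9 and 92.0 CPM in the untreated libraries. Without untreated library 2 the list's median was -0.35 with 8 genes lower at an unadjusted p under 0.05, where all genes then gave 3.83%. Without the nuclei with other classes' markers it was -0.51 with 10 of 24 genes lower, where all genes gave 4.2%. In that fit edgeR called 2 genes of the list, Lcn2 and Spp1, where it called 0.187% of all genes. The 4 markers of injured proximal tubule, which include Dcdc2a, summed to 23.7 and 52.5 CPM in the losartan libraries and 102 and 93.6 CPM in the untreated libraries in the cortical nuclei, and 3 markers of the parietal epithelium to 23.7 and 48.8 CPM in the losartan libraries and 95.7 and 100.4 CPM in the untreated libraries, with none at 0. Their part in the injury values was not tested.

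The list of cytokines and inflammation genes also had a negative median. Cxcl10, an interferon-induced chemokine, had 3.05 and 10.5 CPM in losartan libraries 1 and 2, against 37.1 and 87.3 CPM in untreated libraries 1 and 2. In untreated library 2 the 10 nuclei richest in Cxcl10 held 63.3% of its UMIs. Il34, a ligand of the macrophage growth factor receptor, had 82.4 and 123 CPM in losartan libraries 1 and 2, against 227 and 184 CPM in untreated libraries 1 and 2 (edgeR, adjusted p = 0.173), and the iron oxidase gene Cp had 40.4 and 142 CPM in the losartan libraries and 119.6 and 161 CPM in the untreated libraries. Of 13 tested genes of the cytokine list, 8 had both losartan libraries below, where all genes tested gave 20.5%. At an unadjusted p under 0.05, 5 were lower, where all genes gave 3.89%. In this list edgeR called 0 and DESeq2 2, where all genes gave 0.0347% and 0.51%, and the median was -0.52. With 1 library left out the median ran from -1.19 without losartan library 2 to -0.41 without losartan library 1. Without the nuclei that carried other classes' markers it was -1.16, with 7 of 9 genes lower at an unadjusted p under 0.05, where all genes gave 4.2%. There edgeR called 1 gene of the list, Ltc4s, and 0.187% of all genes. Macrophage markers summed to 93.1 and 98.1 CPM in the losartan libraries and 149 and 136 CPM in the untreated libraries in these nuclei, with none of the 5 at 0. Their part in these values was not tested.

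Interferon and antigen presentation genes had a median log2 fold change of -0.45. Of 24 tested, 14 had both losartan libraries below both untreated libraries and 0 had both above, where all genes tested gave 20.5% and 16.9%. Without untreated library 2 the median was -0.25. At an unadjusted p under 0.05, 3 were lower, namely Ifit1, Cd74 and H2-Ab1, where all genes gave 3.89%. Neither edgeR nor DESeq2 called one. Ifit1, an interferon-induced RNA binding protein, had 3.05 and 6.79 CPM in the losartan libraries and 13.2 and 30.5 CPM in the untreated libraries. The class II genes Cd74 and H2-Ab1 had 54.2 and 46.3 CPM in the losartan libraries and 76.0 and 64.7 CPM in the untreated libraries, and 17.6 and 20.4 CPM in the losartan libraries and 36.5 and 33.6 CPM in the untreated libraries. Cd74 is also among the macrophage markers. Those markers reached 3 or more UMIs in 5 and 8 cortical nuclei in the losartan libraries and 21 and 15 in the untreated libraries. The part of such nuclei in the class II values was not tested.

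The list of ErbB ligands, receptors and targets held Egf and other members close to the threshold. Nrg1, the ligand neuregulin 1, had 107 and 148 CPM in losartan libraries 1 and 2, against 297 and 258 CPM in untreated libraries 1 and 2 (edgeR, adjusted p = 0.0955). After thinning, Nrg1 was found in 16.2% and 20.4% of cortical nuclei in the losartan libraries and 33.3% and 22.0% in the untreated libraries. In proximal tubule-rich nuclei the shares were higher in each library, at 26.2% and 32.8% in losartan and 46.4% and 50.2% in untreated libraries. The 10 nuclei richest in Nrg1 held 43.5% of its cortical UMIs in untreated library 2. Etv4, a transcription factor of receptor tyrosine kinase signalling, had 8.40 and 4.32 CPM in the losartan libraries and 29.3 and 26.3 CPM in the untreated libraries. In this list of 15 tested genes edgeR called 0. At an unadjusted p under 0.05, 1 was higher and 2 lower, where all genes gave 3.63% and 3.89%. DESeq2 called Egf and Nrg1, where it called 0.51% of all genes with an adjusted p, in either direction.

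The remaining lists gave no call in edgeR or DESeq2. Early response and stress genes had a median of -0.22 over 23 genes. Under the alternatives that median ran from -0.43, with losartan library 2 dropped, to -0.15, with the nuclei that carried other classes' markers dropped. Dropping untreated library 2 gave -0.17. At an unadjusted p under 0.05, 6 were lower and 0 higher, where all genes gave 3.89% and 3.63%. Oxidative metabolism genes had a median of 0.03 over 38 genes. Of these, 1 was lower and 1 higher at an unadjusted p under 0.05, where all genes gave 3.89% and 3.63%. Which untreated library was left out turned the sign of the oxidative median. It was 0.24 without untreated library 2, with 29 of 38 genes positive, and -0.16 without untreated library 1, with 26 negative. Transcription factors of the segment had a median of 0.00133 over 29 genes. At an unadjusted p under 0.05, 3 of them were lower, which were Pax2, Pax8 and Ehf, and 0 higher, where all genes gave 3.89% and 3.63%.

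**Figure D3:**
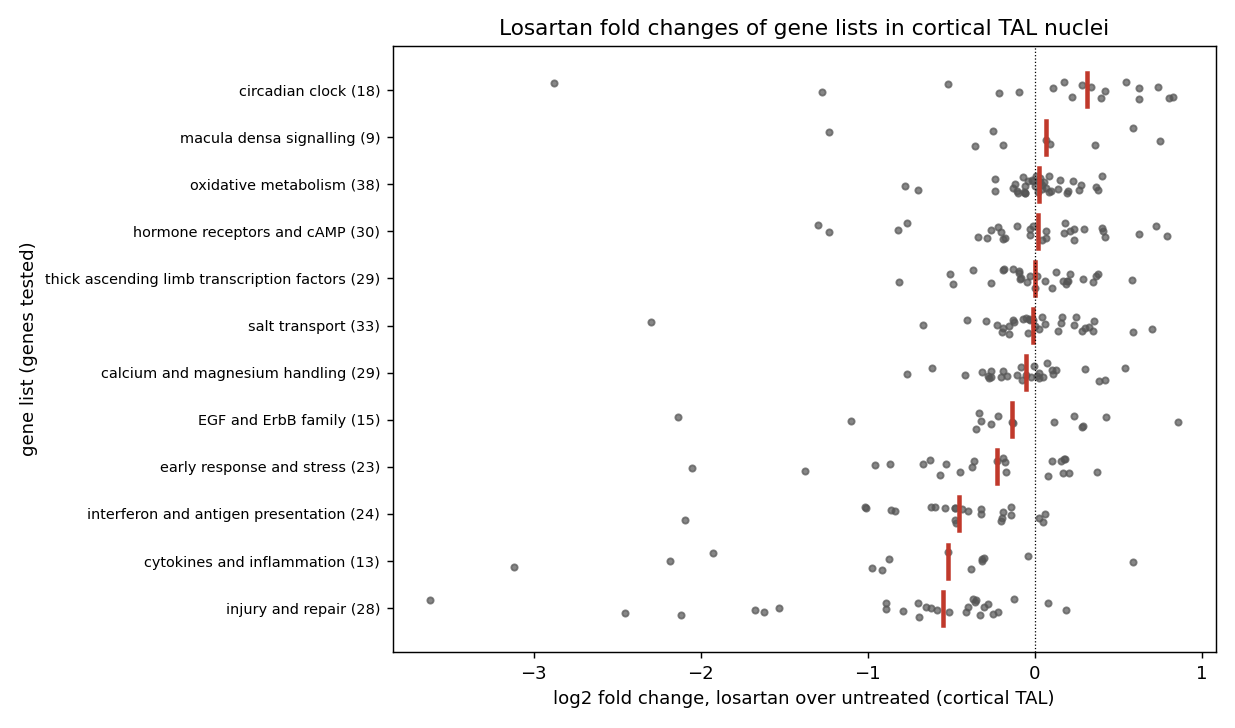
Log2 fold change, losartan over untreated, in cortical thick ascending limb nuclei for the tested members of 12 gene lists, with 1 point per gene and a red bar at the median of the list. The medians of the injury, cytokine and interferon lists were -0.55, -0.52 and -0.45, and that of the clock list was 0.31.

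Clock genes lay on both sides of 0, and neither edgeR nor DESeq2 called one. Of 18 tested genes, 8 were higher and 2 lower at an unadjusted p under 0.05, and 11 had both losartan libraries above both untreated libraries. All genes tested gave 3.63%, 3.89% and 16.9%, in that order. Tef, an output transcription factor that binds the D-box, had 234 and 244 CPM in losartan libraries 1 and 2, against 144 and 146 CPM in untreated libraries 1 and 2, a log2 fold change of 0.74 (edgeR, adjusted p = 0.131). Its relatives Dbp and Hlf had 0.81 and 0.63, the repressor genes Nr1d1 and Nr1d2 0.83 and 0.42, and the period genes Per2 and Per3 0.40 and 0.55 on the log2 scale. Thinned Tef detection was 35.7% and 37.0% of cortical nuclei in the losartan libraries and 24.2% and 26.9% in the untreated libraries. Proximal tubule-rich nuclei had higher shares in each library, at 57.4% and 57.5% in losartan and 49.1% and 54.4% in untreated libraries. The part of proximal tubule RNA in the clock values was not tested.

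The activator Npas2, which pairs with the product of Arntl, had 2.29 and 2.47 CPM in losartan libraries 1 and 2, against 17.9 and 18.4 CPM in untreated libraries 1 and 2, and Arntl had a log2 fold change of -1.27 (edgeR, adjusted p = 0.747). The hour of tissue collection is not given, so it cannot be told apart from the treatment. The median of the list was 0.31, and 0.29 without the nuclei that carried other classes' markers, with 5 genes higher at an unadjusted p under 0.05, where all genes then gave 3.66%.

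Promoter windows of RefSeq (GRCm38.p6), from 250 bases before to 50 bases after a start site, were searched on both strands for 12 motifs in 35 genes picked with their values known, and 30 of the genes had a window. The motifs were the E-box CACGTG, the D-box TTATGTAA and its variant TTACGTAA, the RORE, which is its core TAGGTCA after AA and any 1 base, that core alone, the related receptor core NTGGGTCA, the CRE TGACGTCA, a longer NF-kB motif and the shorter GGAAATTCC, the ISRE core of GAAA, any 2 bases and GAAA, the ERRE TCAAGGTCA and the HNF1 motif. Every RORE match is also a match of its core. Of the 30 genes, 18 held none of the 12 motifs, among them Npas2, Dbp, Nr1d1, Egf and Pde10a, and 4 of the motifs had no match in any of them.

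In all 32851 windows of the table, 7.15% held the E-box, 0.938% the D-box, 0.219% the RORE and 3.44% the ISRE core. For the other motifs, in the order above, the shares were 0.119%, 2.61%, 3.98%, 1.79%, 0.155%, 0.317%, 0.423% and 0.00913%. The E-box was found in Tef, Per1 and Ciart, the D-box in Per3 and Cldn10, the RORE in Arntl, its core in Arntl and Nfil3, the CRE in Hlf, the ISRE core in Cxcl10, Ifit1, Spp1 and Casr, and NTGGGTCA and GGAAATTCC in Cxcl10.

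Of the 22 windows of the whole clock list, 6 held the E-box, 1 the D-box and 1 the RORE, and of the 28 windows of the interferon list, 9 held the ISRE core. A match is a run of letters and not a shown binding site, and a missing match says nothing of the factor. The windows below were chosen because they hold a match and belong to genes whose values are given here, and they are 5′ to 3′ on the strand of the gene with the motif in capitals. Those of Tef and Per3 stand for the clock genes that were higher in the losartan libraries, those of Cxcl10 and Ifit1 for the interferon-related genes that were lower.
Tef, chr15:81802423-81802722, plus strand, E-box: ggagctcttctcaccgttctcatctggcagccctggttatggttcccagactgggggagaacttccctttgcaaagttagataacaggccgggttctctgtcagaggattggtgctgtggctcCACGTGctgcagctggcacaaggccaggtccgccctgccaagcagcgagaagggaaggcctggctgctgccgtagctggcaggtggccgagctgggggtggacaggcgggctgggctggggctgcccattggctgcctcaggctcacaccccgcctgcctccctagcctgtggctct
Per3, chr4:151044616-151044915, minus strand, D-box: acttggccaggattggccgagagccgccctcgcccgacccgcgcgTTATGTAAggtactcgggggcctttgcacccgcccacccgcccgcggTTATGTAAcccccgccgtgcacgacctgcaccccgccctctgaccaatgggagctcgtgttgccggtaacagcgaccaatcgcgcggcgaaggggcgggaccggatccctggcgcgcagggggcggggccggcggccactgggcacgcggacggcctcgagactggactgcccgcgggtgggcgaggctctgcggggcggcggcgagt
Cxcl10, chr5:92348840-92349139, minus strand, ISRE core: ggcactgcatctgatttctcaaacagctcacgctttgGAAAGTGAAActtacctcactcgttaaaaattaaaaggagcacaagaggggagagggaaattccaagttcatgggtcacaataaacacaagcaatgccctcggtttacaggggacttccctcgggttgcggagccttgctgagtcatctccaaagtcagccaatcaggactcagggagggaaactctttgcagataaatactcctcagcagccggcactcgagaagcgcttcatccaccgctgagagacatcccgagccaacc
Ifit1, chr19:34640639-34640938, plus strand, ISRE core: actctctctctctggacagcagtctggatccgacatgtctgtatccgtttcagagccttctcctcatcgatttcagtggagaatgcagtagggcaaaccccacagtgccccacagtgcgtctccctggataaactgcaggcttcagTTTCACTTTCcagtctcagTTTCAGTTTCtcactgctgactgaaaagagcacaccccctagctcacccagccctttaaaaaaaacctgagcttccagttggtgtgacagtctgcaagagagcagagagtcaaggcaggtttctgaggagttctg

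The E-box of this Tef window began 127 bases before the start site, and the other Tef start had one 138 bases before. The Per3 window held 2 D-boxes, 205 and 158 bases before the start. In Cxcl10 the ISRE core began 213 bases before the start, and in Ifit1 there were 2, at 104 and 85 bases before it.

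The losartan fold change was then compared between cortical and medullary-type nuclei of the same libraries, in 1 edgeR fit with library as a block. Of 12665 genes tested, 1 passed, or 0.0079%, and 609, or 4.81%, had an unadjusted p under 0.05. The gene was Nrxn3, on chromosome 12 at 88722876 to 90334935, plus strand. In cortical nuclei it had 1478 and 1559 CPM in losartan libraries 1 and 2, against 1492 and 817 CPM in untreated libraries 1 and 2, with untreated library 2 alone low. In medullary-type nuclei it had 71.3 and 80.9 CPM in the losartan libraries and 187 and 134 CPM in the untreated libraries, and both losartan libraries were lower.

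The difference between the log2 fold changes of Nrxn3, cortical minus medullary-type, was 1.47 ± 0.14 (SE; edgeR, adjusted p = 0.00157), from 0.41 in cortical and -1.01 in medullary-type nuclei. Neither of those fold changes passed on its own, with adjusted p of 0.789 and 0.298 (edgeR). Without any 1 library Nrxn3 still passed, with differences from 1.29 without untreated library 2 to 1.65 without untreated library 1. Leaving out losartan library 1 or 2 raised the count of genes called to 21 or 22, leaving out untreated library 1 to 15, and leaving out untreated library 2 kept it at 1. DCT nuclei had 148 and 227 CPM in the losartan libraries and 409 and 441 CPM in the untreated libraries of Nrxn3.

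The genes called in the cortical comparison are set beside their values in the neighbouring segments, which came from the same libraries. Kap had log2 fold changes of 1.94, 1.90 and 1.79 in cortical, medullary-type and DCT nuclei, Acsm2 had 1.52, 1.003 and 1.08, and Cyp2e1 had 1.79, 1.89 and 1.69. Pde10a had -1.30, -0.72 and -0.45, so its value was nearest 0 in DCT nuclei. Of the uncalled genes, Egf had 0.86, 1.38 and 1.27. Spp1 had -1.53, -1.35 and -1.64. The test of the difference between cortical and medullary-type nuclei gave an adjusted p of 0.979 for Pde10a and 0.979 for Egf (edgeR), so neither passed. The differences were -0.59 and -0.58. For Egf it was -1.07 without untreated library 1, which passed (edgeR, adjusted p = 3.62e-04), and -0.10 without untreated library 2 (adjusted p = 0.996).

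**Figure D4:**
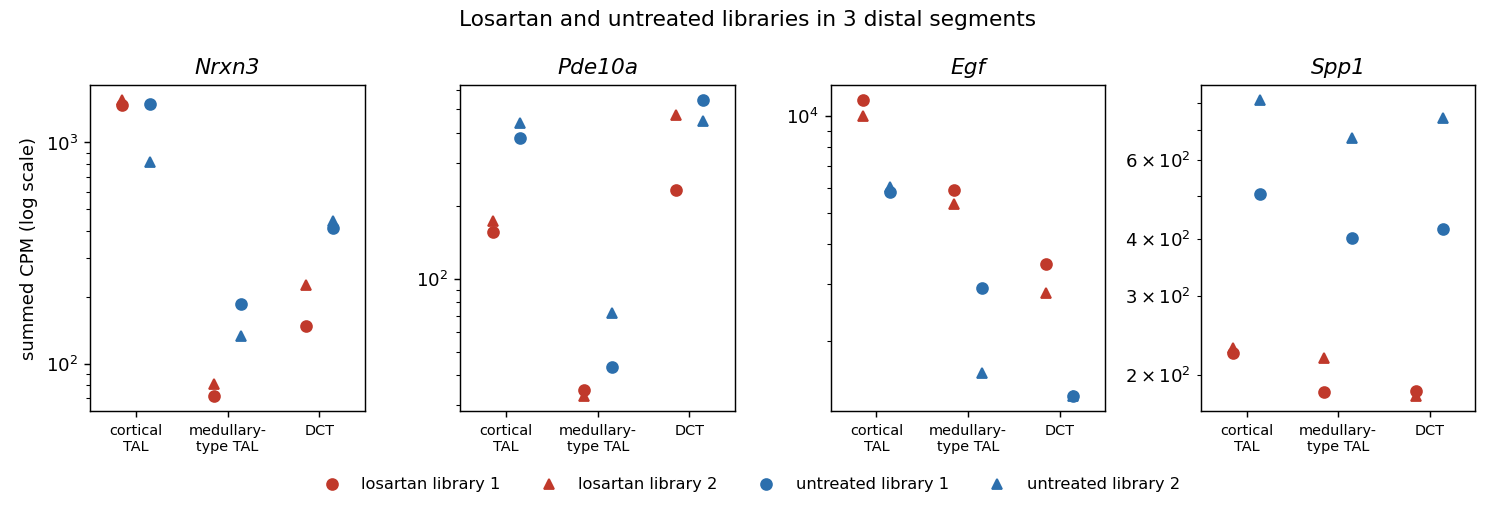
Summed CPM on a log axis for Nrxn3, Pde10a, Egf and Spp1 in cortical thick ascending limb, medullary-type thick ascending limb and distal convoluted tubule nuclei, with losartan libraries (red) left of untreated libraries (blue) and 1 symbol per library. In Nrxn3 the losartan libraries lay below both untreated libraries in medullary-type nuclei, at 71.3 and 80.9 CPM, and not in cortical nuclei.

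The share of nuclei with a UMI was set beside that in proximal tubule-rich nuclei, where genes of the thick ascending limb such as Egf should be absent. Nuclei were thinned to 2000 UMIs, which left out 30 cortical, 59 medullary-type and 51 proximal tubule-rich nuclei, all of untreated library 1. Before thinning, Egf was found in 96.2% and 91.2% of cortical nuclei in the losartan libraries and 86.5% and 82.8% in the untreated libraries. After it, Egf was found in 93.9% and 87.4% of cortical nuclei in the losartan libraries and 80.7% and 75% in the untreated libraries, against 30.2% and 31.8% of proximal tubule-rich nuclei in the losartan libraries and 25% and 13.4% in the untreated libraries. Cxcl10 was found in 0.637% and 1.51% of cortical nuclei in the losartan libraries and 3.91% and 6.99% in the untreated libraries and in 0.395% and 0.789% of proximal tubule-rich nuclei in the losartan libraries and 0.967% and 0.841% in the untreated libraries, so in losartan library 1 the shares were close and in the untreated libraries the cortical share was the higher one. Nrxn3 was found in 36.0% and 34.5% of cortical nuclei in the losartan libraries and 44.5% and 39.5% in the untreated libraries, and in 6.78% and 6.80% of medullary-type nuclei in the losartan libraries and 13.0% and 10.2% in the untreated libraries.

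**Figure D5:**
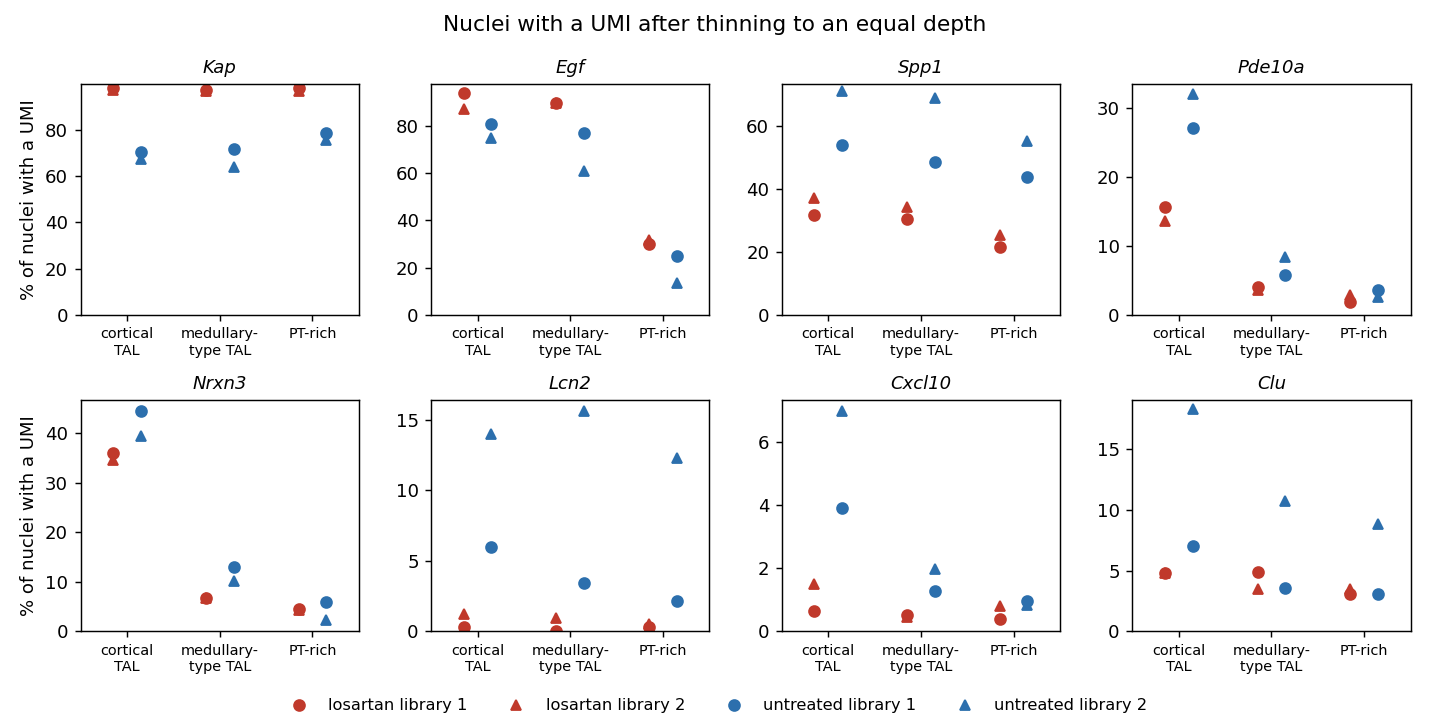
Percent of nuclei with at least 1 UMI after thinning to 2000 UMIs, for 8 genes in cortical thick ascending limb, medullary-type thick ascending limb and proximal tubule-rich (PT-rich) nuclei, with losartan libraries (red) left of untreated libraries (blue). Kap was found in at least 63.6% of nuclei of each of the 3 kinds in every library, while Nrxn3 was found in 36.0% of cortical and 6.78% of medullary-type nuclei in losartan library 1.

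The share of cortical nuclei did not separate the groups. They made up 3.33% (95% Clopper-Pearson interval 2.98 to 3.71%) and 4.03% (3.65 to 4.44%) of kept nuclei in losartan libraries 1 and 2. In untreated libraries 1 and 2 they made up 4.53% (4.11 to 4.98%) and 3.899% (3.52 to 4.31%). These intervals cover counting error only. The means were 3.68 ± 0.496% in losartan and 4.22 ± 0.447% in untreated libraries (SD, n = 2 each; exact two-sided permutation test, p = 0.667). With 2 libraries on each side, the smallest p such a test allows is 0.33.

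Proximal tubule-rich nuclei took a larger part of the losartan libraries. With them left out of the total, the cortical share was 7.63% and 7.33% in losartan libraries 1 and 2, against 6.47% and 4.95% in untreated libraries 1 and 2, so the difference turned its sign (exact two-sided permutation test, p = 0.33). Among cortical and medullary-type nuclei together, the cortical share was 35.3% and 31.8% in the losartan libraries and 32.8% and 36.3% in the untreated libraries (exact two-sided permutation test, p = 0.667).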

How the data were processed

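Single-nucleus RNA was captured from flash-frozen mouse kidneys on the 10x Chromium platform, per the labels' protocols. The authors deposited whole-number UMI counts per gene and barcode for 2 losartan and 2 untreated libraries. The matrices were made with Cell Ranger 5.0.0, per the file headers, and Bowtie 0.12.2 and the build mm10 are named in the submitters' processing notes, so which step each served is not given in the sources used here. Whether counting used strand or introns is also not given. The gate on nuclei, the gene lists and the comparisons were chosen with earlier results of these data known.

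UMI counts of the cortical nuclei were summed per library and tested with edgeR 4.0.16 in R 4.3.3: TMM scaling, filterByExpr, quasi-likelihood test of losartan over untreated, and Benjamini-Hochberg adjustment over all 11529 genes tested, with calls at an adjusted p under 0.05. DESeq2 1.42.0 on the same counts was an alternative. The difference between segments came from 1 edgeR fit of cortical and medullary-type sums with library as a block. Shares were compared with an exact permutation test over libraries (scipy 1.17.1). For detection each nucleus was thinned at random to 2000 UMIs, and shallower nuclei were left out.

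Doublets stayed in the reported values. Scrublet in scanpy 1.11.5 set its own threshold so that it marked 1 and 0 nuclei in the losartan libraries and 717 and 0 in the untreated libraries, which is no working result in 3 of 4. In its place, an alternative left out the highest Scrublet scores at 0.8% per 1000 nuclei, with 19 and 23 cortical nuclei among them in the losartan libraries and 26 and 28 in the untreated libraries. On counts simulated from the cortical sums, the edgeR step on 11529 genes recovered 39.2% of genes changed by 1 log2 unit and 86.2% of those changed by 2, and 9.26% of its calls were genes that had not been changed.

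Genes were named by rule: the 10 smallest p-values in each direction among genes whose groups did not overlap, called list members, called genes of the segment difference, a set of segment genes, and, for levels, the 10 largest ratios in each direction among genes of at least 50 CPM. Certain genes of these sets are not reported here. All other genes named, such as Lcn2, Clu, Nupr1, Dcdc2a, Cdkn1a, Birc3, Nrg1, Etv4, Tef, Ifit1, Kctd1, Robo2, Tmem52b and Foxq1, were picked after their values were seen. Gene positions are those of GENCODE M21 on GRCm38, matched by identifier for 27645 of 27998 genes. Where a symbol belonged to more than 1 gene, as 56 did, the genes were kept apart by identifier. Alternatives covered scaling, filter, tool, gate limits, doublets, proximal tubule UMIs, depth, a replicate block and leaving out each library.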

Additional observations from a re-analysis of the deposited data

Results flagged for a closer look

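The losartan effect on Nrxn3, a cell adhesion gene, differed between cortical and medullary-type nuclei by 1.47 on the log2 scale (edgeR's segment-by-treatment term, adjusted p = 0.00157). By summed CPM, both losartan libraries were lower than both untreated libraries in medullary-type nuclei, while in cortical nuclei the groups overlapped and untreated library 2 was the lowest. The share of thinned cortical nuclei with an Nrxn3 UMI was lower in both losartan libraries, at 36.0% and 34.5% against 44.5% and 39.5% in the untreated libraries. Groups of 2 libraries are too small for a search for single samples that stand apart.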

How the results depend on the processing

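The 4 genes called stayed 4 with RLE scaling and with library sizes alone. The number was 37 in DESeq2, 353 without a filter on low counts, 7 with the replicate block, 2 without the highest doublet scores, 2 once the 10% of cortical nuclei with most proximal tubule UMIs were dropped, 2 at a mitochondrial limit of 5%, 1 at 4 or more UMIs of Enox1, Casr and Cldn16, and 6 among nuclei of at least 2000 UMIs. The 2 genes left in 3 of these were Kap and Acsm2, and the 1 gene was Kap. The 7 with the replicate block held Kap, Acsm2 and Pde10a but not Cyp2e1. Leaving out 1 library gave 0 to 1. With alternatives added after the data were seen, it was 5 without macula densa-type nuclei and 19 without nuclei carrying other classes' markers. The replicate numbers were not taken to pair the libraries: deviations of same-numbered libraries correlated at r = 0.0012 across genes.

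For the difference between segments, 60 genes passed without a filter and 1 to 22 with 1 library left out, and the replicate block gave 1. The cortical share of kept nuclei differed by -0.536 percentage points, by -0.887 to -0.186 with 1 library left out, and by 1.77 with proximal tubule-rich nuclei left out of the total. The cortical share of both limb kinds differed by -0.978, and by -2.76 to 0.802 with 1 library left out.

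Of 749 values of 47 named genes under the alternatives, 667 kept their sign and side of the threshold, 26 no longer passed, 43 came to pass and 13 changed sign. No called gene was among those that changed sign. Genes whose log2 fold change turned with 1 library left out ranged from -0.434 to 0.148 for Enox1, -0.189 to 0.532 for Casr, -0.164 to 0.12 for Kcnj1, -0.246 to 0.0197 for Bsnd, -0.367 to 0.0999 for Atp1b1, -0.146 to 0.323 for Ptger3, -0.213 to 0.18 for Wnk4 and -1.77 to 0.0232 for Cp. Without nuclei carrying other classes' markers Kcnj1 was at 0.00928, Wnk4 at 0.0637 and Pappa2 at 0.145. At 4 or more UMIs of the cortical genes Ptger3 was at -0.0657. The causes of these changes were not tested.

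With 2 libraries a group, a change of 1 log2 unit was often missed on simulated counts. No reported call among the 4 passed with any 1 library left out. Dose, hour, sex and number of mice are not given, so they cannot be told apart from the treatment.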
